A study of Mus musculus with 6 samples.

Results

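The genes described here are 9 members of the STAT and JAK families, Stat2, Stat3, Stat4, Stat5a, Stat5b, Stat6, Jak1, Jak2 and Jak3, taken by name from the 55401 genes counted in each library. The cells were mouse spleen CD4+ T cells, bead-enriched for the naive state, stimulated through CD3 and CD28 for 24 h and then sequenced in bulk. In the Satb1 cKO group (3 libraries) both Satb1 alleles were loxP-flanked and Cre was expressed under Cd4 regulatory sequences, which act in T lineage cells from the thymus on. The control group (3 libraries) is labelled wild type, with no word on Cre or on littermates, so an effect of Cre or of strain background and an effect of the deletion cannot be told apart. Nothing states that the 3 libraries in either group derive from different animals. The p-values measure only how far these libraries spread, and that spread may be technical.

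JAKs are tyrosine kinases bound to the tails of cytokine receptors. When a cytokine brings its receptor chains together, the JAKs phosphorylate the receptor and then the STAT proteins that dock there, and the STATs pair, enter the nucleus and act as transcription factors. In CD4+ T cells the choice of STAT goes with the kind of helper cell. STAT4 acts downstream of IL-12 in Th1 cells and STAT6 downstream of IL-4 in Th2 cells. STAT3 serves IL-6, IL-21 and IL-10, both STAT5 proteins serve IL-2 and IL-7, and STAT2 joins IRF9 in the response to type I interferon. JAK3 binds the common gamma chain, JAK1 pairs with it and with many other receptor chains, and JAK2 serves the IL-12 and interferon gamma receptors.

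The libraries held between 14895389 and 20266626 reads assigned to genes. Satb1 stood at 426, 546 and 462 CPM (read counts relative to the library's total on genes, scaled by TMM) in Satb1 cKO and at 712, 851 and 727 CPM in control. This is a log2 fold change of -0.68 (SE 0.087, adjusted p = 9.7e-05). Counts run over the whole gene, including exons that Cre may not remove. T cell identity genes summed to 1987 to 2044 CPM in Satb1 cKO and 2745 to 2825 CPM in control, with Cd4 itself, at 209 ± 4.06 CPM in Satb1 cKO and 701 ± 19.96 CPM in control, accounting for the larger part of that difference (5 of the 8 genes fell and 1 rose). In bulk libraries, fewer cells of a type and less RNA per cell cannot be told apart. Markers of other cells differed too, and their counts stand beside 21.6% of all tested genes called higher and 20.7% called lower. All 12 tested of 14 myeloid markers were higher in Satb1 cKO (summed level 117 to 200 CPM in Satb1 cKO, 53.6 to 60.4 CPM in control). So were all 7 tested of 9 red cell markers (310 to 1862 CPM in Satb1 cKO, 24.9 to 31.7 CPM in control). Some of these passed the filter on low counts only through the Satb1 cKO libraries. Examples are Cebpa, with 155 Satb1 cKO and 19 control reads, and Slc4a1, with 1007 Satb1 cKO and 8 control reads. Of the dendritic cell markers 2 of 4 tested were higher and of the B cell markers 2 of 6, with 0 lower in either (0 lower also in DESeq2 and at an unadjusted p under 0.05). Zbtb46 (2.36, SE 0.129) and Cd79b (3.10, SE 0.275) kept their call whichever library was left out, while the call on Batf3 was lost without control replicate 1 (adjusted p = 0.105), among others. The summed levels of these lists overlapped between the groups (792 to 933 CPM in Satb1 cKO and 848 to 915 CPM in control for dendritic cells, 242 to 303 CPM in Satb1 cKO and 226 to 289 CPM in control for B cells), but each sum is mostly 1 uncalled gene, Ccr7 (774 to 915 CPM in Satb1 cKO, 844 to 910 CPM in control) and Ighm (230 to 289 CPM in Satb1 cKO, 222 to 280 CPM in control). Among the libraries of a group, control replicate 1 and Satb1 cKO replicate 1 stood farther from the other two than those did from each other. The chi-square per degree of freedom of their counts was 5.47 and 5.07 for Satb1 cKO replicate 1, against 2.75 between the others, and 6.90 and 6.11 for control replicate 1, against 2.09 between the others.

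All 9 STAT and JAK genes were expressed well enough to be tested. Stat3, Stat4 and Stat5a were higher in Satb1 cKO, Stat5b, Jak1 and Jak3 were lower, and Stat2, Stat6 and Jak2 did not pass the test. Thus 6 of 9 were called at an adjusted p under 0.05, beside 42.3% of the 13364 genes tested. Those higher were 3 of 9, beside 21.6% of all genes, and those lower were 3 of 9, beside 20.7%. CPM ranges of the groups did not overlap for 7 of the 9, beside 53.4% of all genes. The changes were small. When tested against a fold change of 1.5 with edgeR, 0 of 9 passed, 0 had an unadjusted p under 0.05, and 7.36% of all genes passed (4.57% higher and 2.78% lower). The median log2 fold change of the 9 was -0.07, beside 0.0034 for all tested genes. Adjusted p-values are from edgeR (quasi-likelihood test, Benjamini-Hochberg over the 13364 genes) unless DESeq2 is named.

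In GRCm38 (GENCODE M21), Stat6 (chr10:127642986-127660957, plus strand, ENSMUSG00000002147.18) and Stat2 (chr10:128270559-128292849, plus strand, ENSMUSG00000040033.16) are on chromosome 10. Stat5b, Stat5a and Stat3 (ENSMUSG00000020919.11, ENSMUSG00000004043.14 and ENSMUSG00000004040.16) follow each other on chromosome 11, with Stat3 at chr11:100885098-100939540 on the minus strand. Stat4 (chr1:51987148-52107189, plus strand, ENSMUSG00000062939.11) is on chromosome 1. The JAK genes are apart, Jak1 at chr4:101152367-101265282 (minus strand, ENSMUSG00000028530.14), Jak2 at chr19:29251828-29313080 (plus strand, ENSMUSG00000024789.13) and Jak3 at chr8:71676296-71690575 (plus strand, ENSMUSG00000031805.17).

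**Figure D1:**
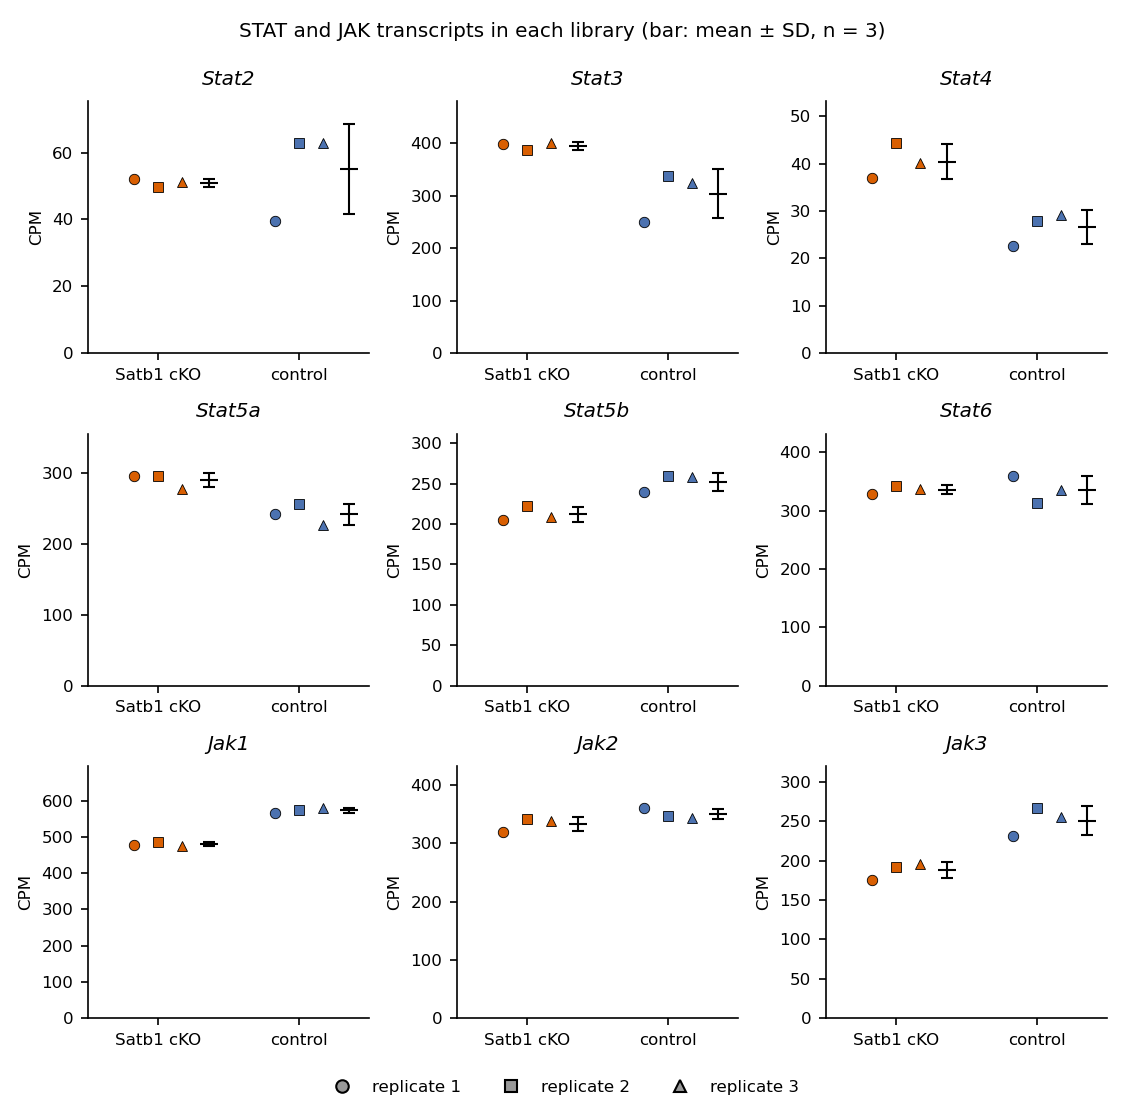
Expression of the 9 STAT and JAK genes in CPM (reads relative to library size, vertical axis from 0) in each Satb1 cKO and control library, with marker shapes for replicates and a bar for the mean and SD of 3 libraries. The groups do not overlap for Stat3, Stat4, Stat5a, Stat5b, Jak1, Jak2 and Jak3, while Stat2 and Stat6 overlap; control replicate 1 is the lowest control for Stat2 (39.5 CPM), Stat3 (250 CPM) and Stat4 (22.5 CPM).

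**Figure D2:**
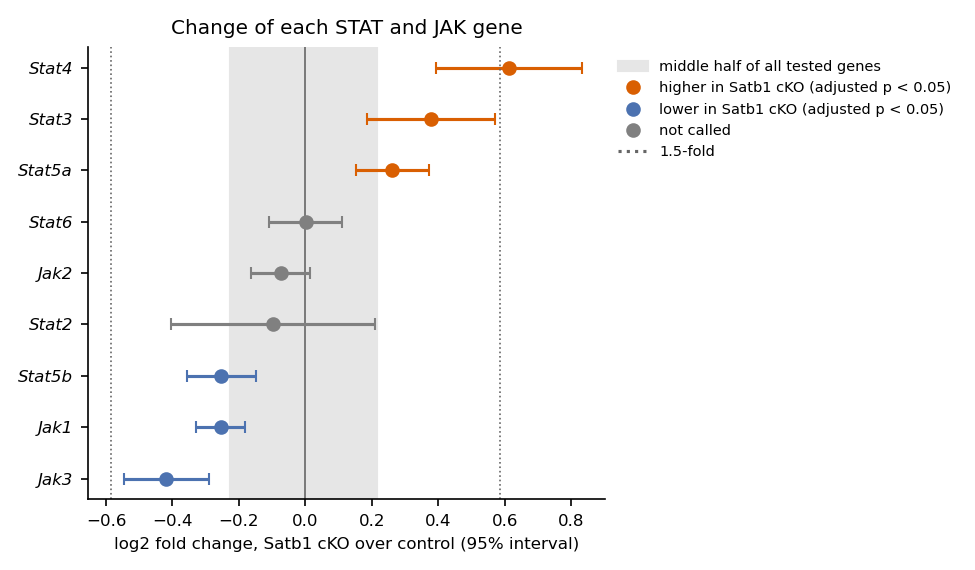
Log2 fold change of Satb1 cKO over control for each gene with its 95% confidence interval from the edgeR fit, coloured by call; dotted lines mark a fold change of 1.5 and the grey band the interquartile range of all tested genes. Stat4 lies highest at 0.61 and Jak3 lowest at -0.42, and Stat5a (0.26) and Stat5b (-0.25) lie on opposite sides of 0.

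Stat4, the IL-12 responsive STAT of Th1 cells, had the largest change of the 9. It measured 36.9, 44.3 and 40.0 CPM in Satb1 cKO replicates 1, 2 and 3, against 22.5, 27.9 and 29.2 CPM in control. Each Satb1 cKO library was above each control library, and the group mean reached 152% of control. On the log2 scale the difference was 0.61 (SE 0.1, 95% interval 0.39 to 0.83, adjusted p = 0.000531). Per length Stat4 is among the scarcest of the 9, so this rests on 2139 reads in Satb1 cKO and 1324 in control. A transcript on the same strand, Gm28177, shares 1033 bp with Stat4 exons, which is 26.7% of Stat4's exon length. Reads in a shared stretch are left out in HTSeq's usual mode, so Stat4's level may be understated; Gm28177 itself was counted in 10 Satb1 cKO and 2 control reads.

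The myeloid genes that moved with it (summed level 117 to 200 CPM in Satb1 cKO, 53.6 to 60.4 CPM in control) were highest in replicate 3, at 200 CPM, and lowest in replicate 2, at 117 CPM, whereas Stat4 was highest in Satb1 cKO replicate 2. Red cell markers, at 310, 1862 and 1610 CPM in Satb1 cKO replicates 1, 2 and 3, ran in the same order as Stat4. Summed CD8 lineage markers, of which 5 of 6 tested rose, ran from 211 to 227 CPM in Satb1 cKO and from 102 to 106 CPM in control. Runx3 alone made up 136 to 145 CPM of this in Satb1 cKO and 67.1 to 74.0 CPM in control. Cd8a, a coreceptor chain that marks CD8 cells, rose (2.95, SE 0.268), while its partner Cd8b1 was not called (0.13, SE 0.106, adjusted p = 0.373). Summed NK cell markers ran from 15.1 to 21.3 CPM in Satb1 cKO and from 7.88 to 9.40 CPM in control. Of these 3 of 7 were tested, and the 2 that rose, Eomes and Tyrobp, also stand in the CD8 lineage and myeloid lists. Klrd1, a receptor chain of NK cells, was not called (adjusted p = 0.401), and Ncr1, a defining receptor of NK cells, was counted in 17 Satb1 cKO and 20 control reads. The part of these cells in the level of Stat4 was not tested.

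Stat3 transcripts measured 399, 386 and 400 CPM in Satb1 cKO, against 250, 338 and 324 CPM in control. The Satb1 cKO libraries lay within a narrow band and the control libraries were all below it, with control replicate 1 well below the other controls. On the log2 scale Stat3 was 0.38 higher (SE 0.088, adjusted p = 0.00479). Without control replicate 1 it was 0.24 (SE 0.040, adjusted p = 0.000205), so the size of the change depended on that library and the call did not.

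Stat5a and Stat5b encode closely similar proteins that respond to IL-2 and IL-7, and their transcripts changed in opposite directions. Stat5a measured 295, 296 and 278 CPM in Satb1 cKO and 241, 256 and 226 CPM in control. Its log2 fold change was 0.26 (SE 0.050, adjusted p = 0.00155), with no overlap between the groups. Stat5b measured 205, 222 and 209 CPM in Satb1 cKO and 240, 260 and 258 CPM in control. All Satb1 cKO values lay below all control values, with a log2 fold change of -0.25 (SE 0.047, adjusted p = 0.00134).

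Per length, in RPKM (reads relative to library size and to the length of all annotated exons together), Stat5a made up 52.7, 50.8 and 50.8% of the Stat5a and Stat5b sum in Satb1 cKO. In control it made up 43.8, 43.4 and 40.5%. The share was 8.89 percentage points higher in Satb1 cKO and the groups did not overlap. The exact permutation test gave p = 0.1, the smallest it can give with 3 against 3 libraries (two-sided; 0.143 with Benjamini-Hochberg adjustment over the 10 shares tested).

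Both genes lie side by side on chromosome 11 and are transcribed away from each other. Stat5b spans chr11:100780731-100850724 on the minus strand and Stat5a chr11:100859351-100885169 on the plus strand (GRCm38). Their transcripts share some identical stretches, and the read length is not known here. Of all 100-base stretches in Stat5a transcripts, 3.44% also occur in Stat5b transcripts, and 4.79% the other way; for 50-base stretches the shares are 8.21% and 11%. Reads from those stretches cannot be placed between the 2 genes. RefSeq lists 2 promoter windows for each (250 bases before to 50 after the start site, GRCm38.p6), and a local alignment of the downstream windows found a stretch of 65 bases without gaps, 58 of them identical (89.2%). It runs from position -66 to -2 relative to the Stat5a start and from -57 to 7 relative to the Stat5b start, counting the start base as 0. The stretches are shown 5′ to 3′ on the strand of each gene, because this pair of near copies moved apart; capitals mark the bases that differ.
Stat5a, chr11:100860418-100860482, plus strand: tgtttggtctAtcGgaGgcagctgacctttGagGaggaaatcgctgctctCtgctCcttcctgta
Stat5b, chr11:100822563-100822627, minus strand: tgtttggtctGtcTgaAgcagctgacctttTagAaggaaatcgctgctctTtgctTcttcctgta
Read counts per gene do not tell which start site was used. The upstream and downstream windows hold 57.7 and 67.7% G and C in Stat5a and 82.7 and 47.3% in Stat5b, beside a median of 52.7% over 32851 promoter windows.

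Stat3 lies directly behind Stat5a, with 72 bp of shared 3′ exon on opposite strands (1.01% of Stat5a and 0.756% of Stat3 exon length). The 3 genes of this run, Stat5b, Stat5a and Stat3, had log2 fold changes of -0.25, 0.26 and 0.38. On the outer sides, Ghdc beyond Stat5b did not pass the test (0.14, SE 0.146, adjusted p = 0.473) and Atp6v0a1 beyond Stat3 was lower (-0.55, SE 0.153, adjusted p = 0.0137). The call on Atp6v0a1 was lost without Satb1 cKO replicate 2 or 3 or control replicate 3 (adjusted p = 0.0536, 0.0559 and 0.0546).

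Stat6, the IL-4 responsive STAT of Th2 cells, measured 329, 342 and 338 CPM in Satb1 cKO and 360, 313 and 335 CPM in control. The Satb1 cKO libraries lay inside the range of the control libraries. The 95% interval of its log2 fold change ran from -0.11 to 0.11 (adjusted p = 0.988). At this depth, with 17836 reads in Satb1 cKO and 17137 in control, the interval leaves out a change of 1.5-fold in either direction. Stat6 and Nab2, which was lower (-0.28, SE 0.074, adjusted p = 0.0103), share 40 bp of exon at their ends.

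Stat2, the partner of IRF9 in the interferon response, measured 52.0, 49.7 and 51.3 CPM in Satb1 cKO and 39.5, 62.8 and 62.7 CPM in control. The Satb1 cKO libraries were close together, with a coefficient of variation of 2.35%, while that of control was 24.4%, because replicate 1 lay below and replicates 2 and 3 above all of the Satb1 cKO libraries. With all libraries the difference on the log2 scale was -0.10 (SE 0.140, adjusted p = 0.602). Without control replicate 1 it was -0.31 (SE 0.056, adjusted p = 0.000491), and without control replicate 3 it was 0.0056 (SE 0.149, adjusted p = 0.982), so the direction for Stat2 depends on which control libraries enter.

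Promoter windows were searched on both strands for the STAT dimer motif TTCNNNGAA, which reads the same on either strand, and for the core of the element that STAT2 and IRF9 bind, which is TTTC, any 2 bases and TTTC again. TTCNNNGAA was in 0 of the 12 windows of the 9 genes, beside 8.30% of all 32851 windows, so the motifs did not overlap in them. The interferon-type motif was in the 1 window of Stat2 and in 1 of the 2 windows of Stat4, beside 3.44% of all windows. Both matches are shown with the bases around them, as the only ones found in the 12 windows for either motif; capitals mark the motif, which lies on the minus strand in Stat4.
Stat2, chr10:128270248-128270315, plus strand: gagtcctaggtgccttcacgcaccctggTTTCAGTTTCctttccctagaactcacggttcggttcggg
Stat4, chr1:52008113-52008182, plus strand: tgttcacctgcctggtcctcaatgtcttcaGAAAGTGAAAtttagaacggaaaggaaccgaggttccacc
The match begins at position -222 in Stat2 and at -97 in the second, downstream window of Stat4. A match describes letters in the window and is not evidence of binding.

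Jak3, the kinase of the common gamma chain, fell most among the JAK genes. It measured 176, 192 and 195 CPM in Satb1 cKO and 231, 267 and 255 CPM in control, with no overlap. The Satb1 cKO mean came to 74.8% of control, a log2 fold change of -0.42 (SE 0.059, 95% interval -0.55 to -0.29, adjusted p = 0.000187). Insl3 lies within the end of Jak3 on the same strand and shares 404 bp of its exons, which is 7.55% of Jak3's exon length. Insl3 stood at 5.23 ± 1.32 CPM in Satb1 cKO and 7.89 ± 2.41 CPM in control (SD, n = 3 each) and was not called (log2 fold change -0.59, adjusted p = 0.0637), except without control replicate 3 (-0.78, SE 0.229, adjusted p = 0.0259). The Jak3 promoter window holds a run of 17 A or T bases, beside a median longest run of 7 over all windows.

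Jak1, which works with JAK3 at gamma chain receptors and with other JAKs elsewhere, measured 478, 487 and 476 CPM in Satb1 cKO and 565, 575 and 579 CPM in control. The groups were tight, with coefficients of variation of 1.28% in Satb1 cKO and 1.24% in control, and did not overlap. Its log2 fold change was -0.26 (SE 0.033, adjusted p = 0.00011). Raver2, which touches Jak1 over 4 bp on the opposite strand, fell further (-2.01, SE 0.271, adjusted p = 0.000143), at 0.724 ± 0.232 CPM in Satb1 cKO and 2.96 ± 0.212 CPM in control.

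Jak2, the kinase of the IL-12 receptor beta 2 chain and of IFNGR2, measured 320, 341 and 338 CPM in Satb1 cKO and 360, 347 and 344 CPM in control. The ranges did not touch, but the difference did not pass the test (log2 fold change -0.07, SE 0.040, 95% interval -0.16 to 0.02, adjusted p = 0.169).

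Set against each other per length, the members took a different order in the groups. In Satb1 cKO, Stat6 came first at 76.4 ± 1.598 RPKM, followed by Jak1 (66.4 ± 0.85 RPKM) and Jak2 (66.2 ± 2.27 RPKM), whose library ranges overlapped. Stat3, Stat5a and Stat5b came next at 41.5 ± 0.798, 40.5 ± 1.42 and 38.3 ± 1.61 RPKM, each overlapping its neighbour in this order. Jak3 followed at 35.1 ± 1.92 RPKM, then Stat4 at 10.4 ± 0.962 RPKM and Stat2 at 8.60 ± 0.202 RPKM, without overlaps between these (SD, n = 3). In control, Jak1 (79.3 ± 0.983 RPKM) and Stat6 (76.3 ± 5.38 RPKM) overlapped, and Stat6 overlapped Jak2 (69.7 ± 1.76 RPKM). Jak3 (46.9 ± 3.38 RPKM) and Stat5b (45.6 ± 2.00 RPKM) overlapped and stood above Stat5a (33.8 ± 2.09 RPKM) and Stat3 (31.9 ± 4.95 RPKM), which overlapped. Stat2 (9.28 ± 2.27 RPKM) and Stat4 (6.86 ± 0.922 RPKM) were lowest and overlapped. By mean level, Jak3 and Stat5b stood below Stat5a and Stat3 in Satb1 cKO and above them in control, although Stat5b and Stat5a overlapped in Satb1 cKO. Union exon length counts isoforms that may not be in use, which matters for levels between genes and, where isoform use is the same, not for a gene between groups.

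**Figure D3:**
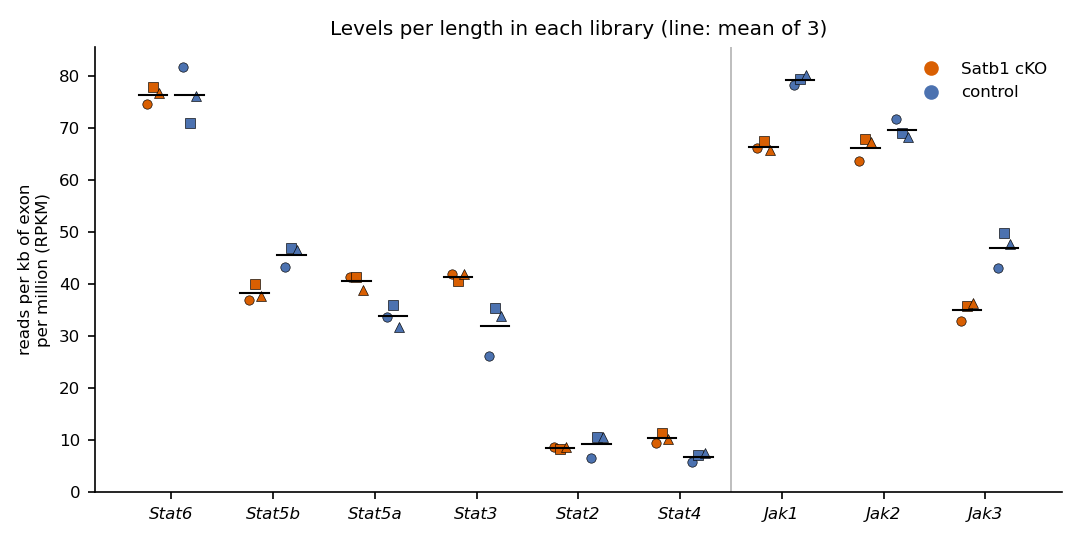
Levels per exon length (RPKM, vertical axis from 0) of the 6 STAT and 3 JAK genes in each Satb1 cKO and control library; horizontal lines are means of 3. Stat5a lies above Stat5b in each Satb1 cKO library (means 40.5 and 38.3 RPKM) and below it in each control library (33.8 and 45.6 RPKM), and Jak1 and Jak3 are lower in Satb1 cKO.

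The 3 JAK genes together summed to 163, 171 and 170 RPKM in Satb1 cKO and 193, 198 and 196 RPKM in control, so Satb1 cKO averaged 85.6% of control. The 6 STAT genes summed to 213, 220 and 214 RPKM in Satb1 cKO and 198, 207 and 207 RPKM in control, or 106% of control on average. Neither pair of ranges overlapped (exact permutation p = 0.1 each, the smallest possible). Within the STAT sum, Stat3 held 19.2 ± 0.670% in Satb1 cKO and 15.6 ± 2.05% in control. The share of Stat5b was 17.7 ± 0.456% in Satb1 cKO and 22.4 ± 0.399% in control. Stat4 took 4.83 ± 0.369% in Satb1 cKO and 3.36 ± 0.372% in control. Within the JAK sum, Jak2 held 39.5 ± 0.298% in Satb1 cKO and 35.6 ± 1.33% in control, and Jak3 20.9 ± 0.650% in Satb1 cKO and 23.9 ± 1.41% in control. The share of Jak1, at 39.6 ± 0.930% in Satb1 cKO and 40.5 ± 0.399% in control, overlapped between the groups (exact permutation p = 0.3).

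Receptor chains that act through these kinases and STATs were described from lists of textbook members. These lists, and those below, were chosen with earlier results of these data known. Their counts stand beside a background of 42.3% called, 21.6% higher and 20.7% lower. All 7 chains of the gamma chain and related receptors linked to STAT5 were higher in Satb1 cKO (median log2 fold change 0.76, 6 of 7 in DESeq2). This was opposite to Jak3 and Stat5b and in the direction of Stat5a. Il9r, counted in 80 Satb1 cKO and 11 control reads, passed the filter on low counts only through the Satb1 cKO libraries. Il2rg, the gamma chain that JAK3 binds, changed least, at 81.7 ± 2.78 CPM in Satb1 cKO and 73.2 ± 4.46 CPM in control (log2 fold change 0.16, SE 0.055, adjusted p = 0.0354). Its call was lost without Satb1 cKO replicate 2 or 3 or control replicate 1 or 3 (adjusted p = 0.105, 0.122, 0.132 and 0.0853), and without control replicate 1 the value was 0.10. Il2rb, the IL-2 receptor beta chain, stood at 641 ± 18.4 CPM in Satb1 cKO and 324 ± 50.7 CPM in control (0.99, SE 0.088, adjusted p = 6.59e-06), and Il7r at 183 ± 6.66 CPM in Satb1 cKO and 150 ± 15.5 CPM in control (0.29, SE 0.065, adjusted p = 0.00447).

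Both chains of the IL-12 receptor, linked to STAT4 and JAK2, were higher. Il12rb1 measured 250, 231 and 248 CPM in Satb1 cKO and 120, 154 and 162 CPM in control (log2 fold change 0.75, SE 0.091, adjusted p = 6.38e-05). Il12rb2 measured 22.8, 27.2 and 31.9 CPM in Satb1 cKO and 2.46, 12.0 and 10.8 CPM in control (1.75, SE 0.356, adjusted p = 0.00222). The receptor chains linked to STAT3 divided, with 2 of 7 tested higher and 4 lower (11 listed; 3 and 3 in DESeq2). Those of IL-21 and IL-10 rose, Il21r, which pairs with the gamma chain (0.76, SE 0.040, adjusted p = 1.46e-07) and Il10ra (1.48, SE 0.140, adjusted p = 1.01e-05), while Il27ra (-0.25, SE 0.050, adjusted p = 0.0019) fell with Il6ra and the shared signalling chain Il6st (-1.79 and -1.03). Il23r, a chain of the IL-23 receptor, was counted in 34 Satb1 cKO and 0 control reads and did not pass the filter on low counts with all libraries. Without control replicate 1 it was tested and called higher (adjusted p = 0.00114); with all control libraries at 0, its fitted fold is not given.

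Il4ra, the STAT6-linked IL-4 receptor chain, stood at 256 ± 11.8 CPM in Satb1 cKO and 265 ± 51.7 CPM in control and was not called (adjusted p = 0.761); without control replicate 1 it was lower (-0.19, SE 0.065, adjusted p = 0.029). Among interferon receptor chains, Ifngr1 and Ifnar2 rose (1.48 and 0.38, SE 0.115 and 0.065), Ifngr2 fell (-0.32, SE 0.077), and Ifnar1 did not pass (-0.08, adjusted p = 0.309) except without control replicate 1 (-0.16, SE 0.051, adjusted p = 0.0252).

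**Figure D4:**
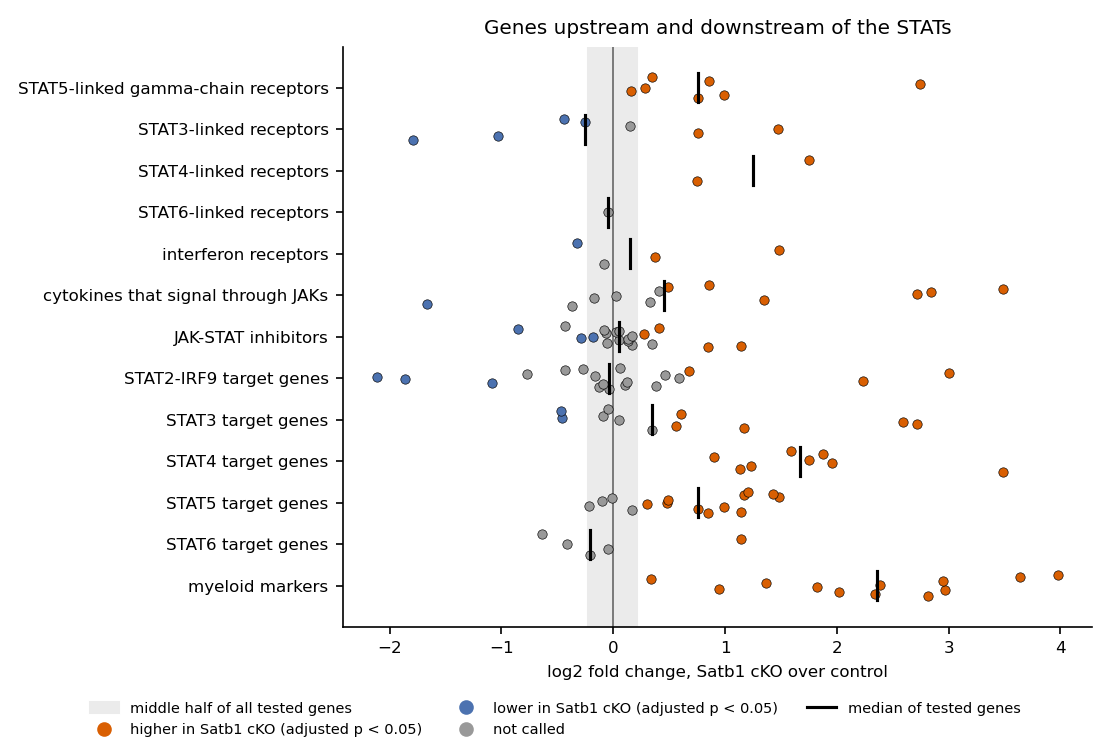
Log2 fold change, Satb1 cKO over control, of each tested gene in lists of receptors, cytokines, inhibitors and target genes of the STATs, with myeloid markers for comparison; points are coloured by call, black lines are list medians, and the grey band is the interquartile range of all tested genes. Medians are 0.76 for STAT5-linked receptors, 1.67 for STAT4 target genes, 0.05 for inhibitors and -0.04 for STAT2-IRF9 target genes.

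Of the cytokine genes that signal through JAKs, 12 of 23 could be tested, and 6 rose and 1 fell (median 0.45). Over all tested genes, 21.6% were called higher and 20.7% lower. Il23a, which encodes a subunit of IL-23 and lies next to Stat2 on chromosome 10, rose (2.84, SE 0.383, adjusted p = 0.00014). It stood at 1.75 ± 0.195 CPM in Satb1 cKO and 0.248 ± 0.136 CPM in control. With 93 Satb1 cKO and 12 control reads, it passed the filter on low counts only through the Satb1 cKO libraries. The same holds for Ifng (3.49, SE 0.436, 550 Satb1 cKO and 46 control reads) and Il21 (2.72, SE 0.262, 217 and 31 reads), which also rose. Il10 rose too (1.35, SE 0.240, adjusted p = 0.000945). Lif, a cytokine that signals through gp130, stood at 268 ± 5.76 CPM in Satb1 cKO and 148 ± 11.8 CPM in control (0.86, SE 0.056, adjusted p = 5.6e-07), and Osm, of the same family, rose as well (0.49, SE 0.072, adjusted p = 0.000252). Il3 fell (-1.67, SE 0.333, adjusted p = 0.00199). With 44 Satb1 cKO and 137 control reads, Il3 passed the filter on low counts only through the control libraries. Il2, the main product of newly activated CD4+ T cells, was at 154 ± 16.8 CPM in Satb1 cKO and 199 ± 59.0 CPM in control and did not pass (adjusted p = 0.0832); without control replicate 2 it was lower (-0.52, SE 0.148, adjusted p = 0.0213).

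Inhibitors of the pathway went both ways: 4 of 19 rose, 3 fell and 12 did not pass, beside 21.6% higher and 20.7% lower over all tested genes, and the median was 0.05. Ptprc, which encodes CD45, a phosphatase that acts on JAKs and on kinases of the T cell receptor, had the smallest p of the list. It measured 1218, 1355 and 1302 CPM in Satb1 cKO and 2378, 2282 and 2329 CPM in control (-0.85, SE 0.039, adjusted p = 4.17e-08), without overlap. Summed over the list, levels were 2903 to 3090 CPM in Satb1 cKO and 3841 to 3887 CPM in control, a difference smaller than that of Ptprc alone. Among those that rose were 2 feedback inhibitors that cytokines induce. Cish, an inhibitor of IL-2 signalling that STAT5 induces, measured 138, 154 and 148 CPM in Satb1 cKO and 76.5, 88.1 and 79.7 CPM in control (0.85, SE 0.060, adjusted p = 1.17e-06). Socs1, which blocks JAK activity, measured 129, 147 and 136 CPM in Satb1 cKO and 47.2, 76.7 and 63.4 CPM in control (1.15, SE 0.129, adjusted p = 3.69e-05). Socs3, the feedback inhibitor of gp130, stood at 53.4 ± 3.75 CPM in Satb1 cKO and 42.5 ± 13.5 CPM in control and did not pass (adjusted p = 0.147), with control replicate 1 at 27.0 CPM. Sh2b3, an adaptor that restrains JAK2, rose (0.41, SE 0.052, adjusted p = 8.31e-05), as did Pias4 (0.28, SE 0.052), while Pias1 and Pias2, of the same family of nuclear STAT inhibitors, fell (-0.29 and -0.18, SE 0.053 in both). The call on Pias2 was lost without Satb1 cKO replicate 1 or control replicate 3 (adjusted p = 0.0701 and 0.0563). Ptpn2, a phosphatase of JAK1, JAK3 and STATs, did not pass (0.02, SE 0.053, adjusted p = 0.738).

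Known target genes were listed by STAT, and some also appear among the receptors and inhibitors above, so the lists are not independent. The lists were also chosen with earlier results of these data known. Their counts stand beside 21.6% higher and 20.7% lower over all tested genes. All 8 tested of 9 STAT4 target genes were higher in Satb1 cKO (median 1.67). They include Tbx21, encoding the Th1 factor T-bet, at 108, 106 and 111 CPM in Satb1 cKO and 16.98, 64.1 and 69.8 CPM in control (1.13, SE 0.339, adjusted p = 0.0191). Without control replicate 1 that value was 0.68 (SE 0.052, adjusted p = 1.93e-07), and without Satb1 cKO replicate 3 the call was lost (1.11, SE 0.397, adjusted p = 0.0547). Gadd45g (1.87, SE 0.164, adjusted p = 5.56e-06) and Il18r1 (1.24, SE 0.171, adjusted p = 0.000164) rose too. Ifng, also on this list, rose as well (3.49, SE 0.436). With 550 Satb1 cKO and 46 control reads, Ifng passed the filter on low counts only through the Satb1 cKO libraries. Of 15 STAT5 target genes 11 rose and 0 fell, with 0 lower at an unadjusted p under 0.05 and 0 lower in DESeq2 (median 0.76). Lta, encoding lymphotoxin alpha, stood at 298 ± 23.1 CPM in Satb1 cKO and 133 ± 15.8 CPM in control, and the kinase gene Pim1 at 501 ± 25.9 CPM in Satb1 cKO and 358 ± 27.0 CPM in control (1.17 and 0.49, SE 0.081 and 0.057). Bcl2, Pim2, Ccnd2 and Socs2 of that list did not pass, but without control replicate 1 Bcl2 and Pim2 fell (-0.38 and -0.22, adjusted p = 0.000164 and 0.001).

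STAT3 target genes went both ways, with 5 of 11 tested higher and 2 lower (median 0.35), or 4 lower without control replicate 1. List counts here stand beside 21.6% higher and 20.7% lower over all tested genes. Junb rose (0.60, SE 0.040, adjusted p = 6.26e-07), and Bcl6 and Fos fell (-0.46 and -0.47, SE 0.118 and 0.122). Of 5 tested STAT6 target genes, 1 rose (Socs1, shared with other lists) and 0 fell, with 2 lower at an unadjusted p under 0.05, 1 lower in DESeq2 and 0 to 1 lower when a library was left out. Gata3, the Th2 factor, stood at 28.8 ± 4.09 CPM in Satb1 cKO and 33.3 ± 2.12 CPM in control and did not pass (adjusted p = 0.0989), except without Satb1 cKO replicate 2 (-0.34, SE 0.083, adjusted p = 0.00943). The receptor, cytokine and target lists include genes that myeloid, NK and CD8 lineage cells also express, and of the markers of those cells 12 of 12, 2 of 3 and 5 of 6 tested were higher in Satb1 cKO (medians 2.36, 1.09 and 1.21). Foxp3, the factor of regulatory T cells, is on the STAT5 target list. It stood at 61.6 ± 6.64 CPM in Satb1 cKO and 22.2 ± 4.61 CPM in control (1.48, SE 0.122, adjusted p = 3.59e-06). The part of all these cells, regulatory T cells included, in the list counts was not tested.

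Many target genes of STAT2 with IRF9, though not all, followed Stat2 in their dependence on control replicate 1. With all libraries 3 of 19 tested rose, 3 fell and 13 did not pass (median -0.04), beside 21.6% higher and 20.7% lower over all tested genes. Summed over the list, levels were 262, 267 and 253 CPM in Satb1 cKO and 200, 288 and 284 CPM in control. As for Stat2, the Satb1 cKO libraries lay between control replicate 1 and the other controls. Control replicate 1 was the lowest control library for 16 of the 19 genes, beside 36.4% of all tested genes. Irf9 measured 73.9, 73.1 and 70.7 CPM in Satb1 cKO and 59.1, 81.7 and 83.4 CPM in control. Without control replicate 1, 8 of the list fell, among them Irf9 (-0.20, SE 0.050, adjusted p = 0.00599), Oasl2 (-1.12, SE 0.163, adjusted p = 8.53e-05) and Rtp4 (-0.59, SE 0.168, adjusted p = 0.0115). Bst2, an antiviral membrane protein, went the other way, at 81.4, 86.9 and 81.5 CPM in Satb1 cKO and 49.97, 51.2 and 54.8 CPM in control (0.68, SE 0.054, adjusted p = 2.52e-06). Rsad2 and Mx1 also rose with all libraries (3.01 and 2.24, SE 0.540 and 0.535). With 396 and 72 Satb1 cKO reads, and 47 and 14 control reads, both passed the filter on low counts only through Satb1 cKO. All 3 were still called higher without control replicate 1 (0.64, 2.62 and 1.86 for Bst2, Rsad2 and Mx1).

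**Figure D5:**
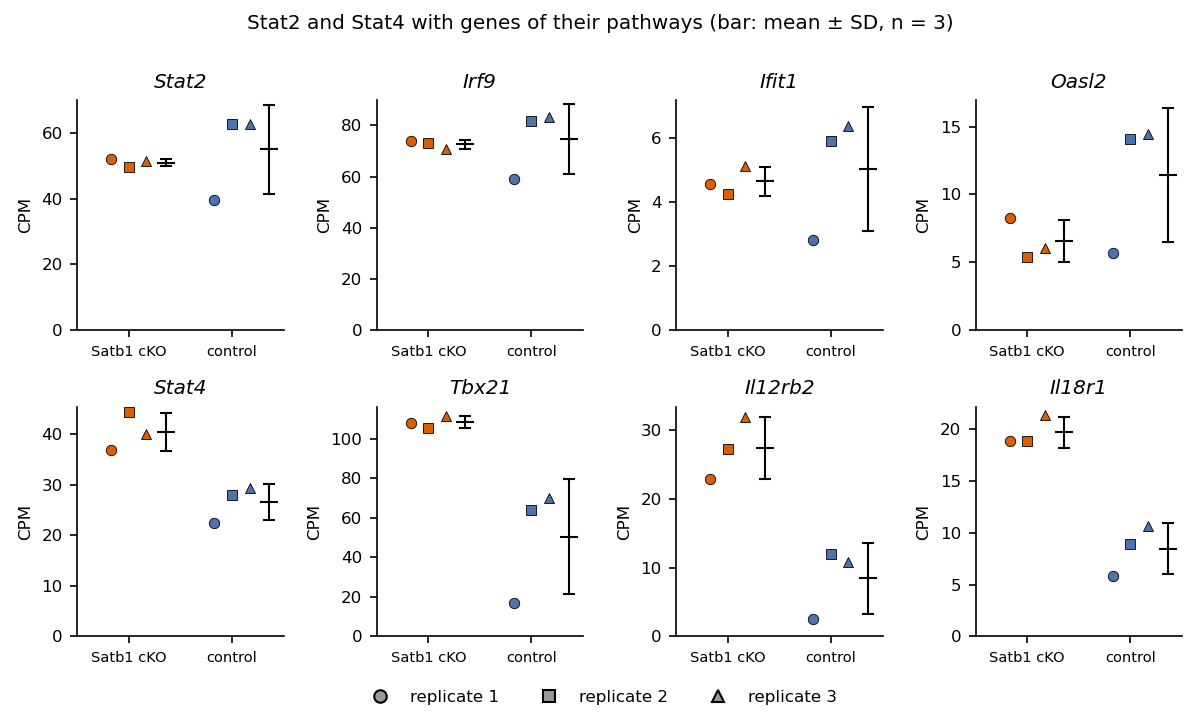
CPM in each Satb1 cKO and control library for Stat2 with Irf9 and the interferon target genes Ifit1 and Oasl2 (upper row), and for Stat4 with its linked genes Tbx21, Il12rb2 and Il18r1 (lower row); marker shapes are replicates and bars the mean and SD of 3. Control replicate 1 is the lowest control library in all 8 panels, at 39.5 CPM for Stat2 and 16.98 CPM for Tbx21, and in the lower row every Satb1 cKO library is above every control library.

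Control replicate 1 was the lowest control for 6 of the 9 STAT and JAK genes, for 7 of 8 STAT4 target genes and for 11 of 15 STAT5 target genes, against the 36.4% over all genes given above. Without it, Stat3, Stat4 and Stat5a were still called higher and Stat5b, Jak1 and Jak3 lower, with log2 fold changes of 0.24, 0.49, 0.25, -0.30, -0.28 and -0.49.

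The genes whose profile over the 6 libraries was most like that of each member were found by the root mean square difference of mean-centred log2 CPM among tested protein-coding genes. For Jak1 they were Setd7 and Cbx3 (differences of 0.012 and 0.013), for Stat5b H2afy and Ppp2r5a (0.020 and 0.020), and for Stat5a Mrps16 and Jpt1 (0.023 and 0.026). Jak3 was nearest to Iffo1 and Itpr3 (0.028 and 0.030), Stat3 to Sorl1 and H2-Q4 (0.036 and 0.037) and Stat4 to Serpinb6a and Pck2 (0.044 and 0.060). Jak2 was nearest to Sephs1 and Adprh (0.011 and 0.012), Stat6 to Ino80c and Slc39a9 (0.017 and 0.017), and Stat2 to Psmb9 and Nucb2 (0.056 and 0.057). No member was among the 2 nearest genes of another.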

How the data were processed

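Titles put the 6 libraries into groups of 3 Satb1 cKO and 3 control replicates. The authors deposited whole-number read counts per gene, not normalized. Per the submitters' processing notes, the tools were STAR 2.7.3a and HTSeq 0.12.4 and the genome was mm10; the sources used here give no annotation release, strand setting or read length. Summary lines were left out: no feature (7.45 ± 0.149% of reads in Satb1 cKO, 9.34 ± 0.158% in control; SD, n = 3 each), ambiguous (5.55 ± 0.037%, 5.42 ± 0.015%) and multiply aligned (3.03 ± 0.124%, 3.05 ± 0.0046%).

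Positions and exon lengths came from GENCODE M21 (GRCm38), which matched 55141 of 55401 genes, and promoters from RefSeq (GRCm38.p6), which matched all 9 members. Counts passing filterByExpr (13364 genes) were scaled by TMM and tested in edgeR 4.0.16 (R 4.3.3) by quasi-likelihood, with group as the only term; calls are at an adjusted p under 0.05. Standard errors came from the coefficient and its F statistic. Shares were compared by exact permutation. Alternatives were DESeq2 1.42.0, other scalings and filters, a replicate block and leaving out each library. Named genes were Satb1, the members, genes of 19 lists (184 genes), the 2 nearest profiles per member, and neighbouring or overlapping genes. Members and lists were chosen with earlier results of these data known.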

Additional observations from a re-analysis of the deposited data

How the results depend on the processing

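Stat3, Stat4, Stat5a, Stat5b, Jak1 and Jak3 kept their direction and call, and Jak2 stayed uncalled, in all 13 alternatives run for each gene. Without control replicate 1, Stat2 was called lower (-0.31), and without control replicate 3 its log2 fold change was 0.0056; the cause was not tested. Stat6 was never called and took either sign around 0: -0.0023 with DESeq2, -0.00998 with upper quartile scaling, -0.015 with no filter, -0.0059 without immunoglobulin, T cell receptor, mitochondrial and globin genes, and -0.0569 to 0.0432 when a library was left out. Tested against a fold of 1.5, 0 members were higher and 0 lower. Leaving out a library gave 3 members higher and 3 to 4 lower.

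Counts of genes called lower moved as follows. STAT6 target genes had 1 with DESeq2, upper quartile scaling or the replicate block, 3 with no filter, and 0 to 1 with a library left out. Cytokines had 2 with no filter or the replicate block, and 1 to 2 with a library left out. STAT5 target genes had 2 with no filter, 1 with the replicate block, and 0 to 2 with a library left out. Leaving out a library gave 1 to 2 interferon receptors, 3 to 8 STAT2-IRF9 target genes, 2 to 4 STAT3 target genes and 0 to 1 STAT6-linked receptors. STAT6-linked receptors called higher were 1 with DESeq2 or no filter, and 0 to 1 with a library left out. The replicate block called 5563 genes, beside 5651, and changed no call on a member. The correlation of deviations between same-numbered libraries was 0.021, -0.013 and 0.028, beside -0.070 to 0.046 between libraries of different number. Same-numbered libraries thus showed no shared deviation, which cannot exclude that they were prepared as pairs. DESeq2 called 18.3% of the 26132 genes with at least 1 read. Genes that it left without an adjusted p are in that total, so the share does not compare with 42.3% of 13364. The share differences kept their sign whichever library was left out, from 7.86 to 9.52 points for Stat5a of both Stat5 genes. Where the groups did not overlap, as there, leaving out a library could not change the sign. Library scaling does not enter a share. With 3 libraries a group, exact permutation cannot go below p = 0.1. Read depth limits Ncr1, with 17 Satb1 cKO and 20 control reads, and Il23r, which the filter removed with all libraries and which was called without control replicate 1.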
